A study of Mus musculus with 8 samples.

Results

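The transcriptome of untreated MC38 tumors was described from the 4 non-photoconverted control tumors of a series of 8. Members were the samples labelled Control, numbered 1 to 4, and no exposed tumor entered any value. The MC38 line came from a colon adenocarcinoma of the mouse. Kaede mice express a fluorescent protein that turns from green to red under violet light. Each tumor had been grown in a female B6 Kaede mouse, 9 weeks old, from 250000 injected MC38 cells, and was about 5 mm wide on day 10. The control tumors were never exposed to the light but were collected together with the exposed tumors, 5 h after that exposure. The study describes injection into the left flank, so separate mice are likely, but the labels do not tie tumors to mice and the spread between them may be partly technical.

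A tumor grown under the skin mixes malignant cells with cells of the host. Macrophages and monocytes often make up most of the leukocytes of MC38 tumors, fibroblasts lay down the collagen matrix, and endothelial cells line the vessels. T and natural killer (NK) cells can kill tumor cells that display peptides on MHC class I, whereas MHC class II is displayed mainly by macrophages, dendritic cells and B cells. In bulk RNA, fewer cells of a type and less RNA per cell cannot be told apart, and a gene is assigned to a cell type below only as a marker.

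Total counts were between 12576615 and 29439901 per tumor. Rn45s, from which ribosomal RNA is processed, took 2.70% of all counts in tumor 1, 4.70% in tumor 3, 23.2% in tumor 4 and 35.7% in tumor 2, and this gene was left out of everything that follows. Between 8081939 (tumor 2) and 28645033 (tumor 1) counts remained. Of 24421 genes in the table, 19501 had a read in at least 1 tumor, 15776 had a read in every tumor, and 13497 reached a mean of 1 CPM (counts scaled to a common library size, with TMM factors that adjust for library composition). Across those genes, log2 CPM of pairs of tumors correlated with an r between 0.930 (tumors 1 and 2) and 0.985 (tumors 1 and 3). These are correlations across genes, which are not independent replicates. Levels of different genes were compared as TPM, in which counts are divided by exon length and scaled to the same total in each tumor.

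The most abundant transcripts belonged to RNA processing, chromatin replication, protein synthesis, the cytoskeleton and glycolysis. Rpph1, the RNA component of RNase P, came first, with 50372, 108669, 60441 and 96468 TPM in tumors 1 to 4. Rmrp, the RNA of the related RNase MRP, followed with 45075, 23022, 35992 and 29622 TPM. The 2 RNAs ranked the tumors differently, since Rpph1 was lowest and Rmrp highest in tumor 1.

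Of the other 18 of the 20 genes with the highest mean TPM, 14 were replication-dependent histone genes, which are transcribed in S phase to package new DNA. The histone genes as a class (68 genes) took 3.59%, 3.65%, 3.38% and 5.66% of the counts in tumors 1 to 4, so that tumor 4 was set apart by its higher share. Hist1h4k had 6487, 7920, 7136 and 14449 TPM, and 47 of the 66 histone genes that reached 1 CPM were highest in tumor 4, against 3376 of all 13497 such genes. Many histone genes are near-identical copies, and Hist2h2aa1 and Hist2h2aa2 had the same counts in every tumor, so that levels of single copies are uncertain. In all, 97 of the 13131 genes with 100 or more counts shared their 4 counts with another gene.

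The remaining genes of that group were Eef1a1, Actb, Ftl1 and Rplp1. Eef1a1, which brings aminoacyl-tRNA to the ribosome, had 8325, 4972, 7642 and 6121 TPM. Actb, the cytoplasmic β-actin, had 6215, 5458, 6674 and 5165 TPM and was the more even of the pair. Ftl1 encodes the light chain of the iron store ferritin and Rplp1 a protein of the ribosomal stalk. By share of counts, which favors long transcripts, the first 10 genes were Rpph1, Eef1a1, Actb, Ahnak, Rmrp, Pkm, Vim, Col3a1, H2-D1 and Hsp90ab1. They held 4.54% of the counts on average, the first 100 genes held 16.9% and the first 1000 held 48.0%.

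After histones and ribosomal proteins, the 30 protein-coding genes with the highest levels included 2 MHC class I heavy chains, H2-D1 and H2-K1, and their light chain B2m. Lgals1, encoding the lectin galectin-1, had 3548, 1728, 3443 and 2249 TPM. Spp1, encoding osteopontin, a secreted phosphoprotein made by macrophages and by many tumor cells, had 2570, 1453, 2906 and 1662 TPM. Both were higher in tumors 1 and 3 than in tumors 2 and 4. The interferon-induced membrane proteins Ifitm3 (mean 2465 TPM) and Bst2 (mean 1873 TPM) were also among the first 30.

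**Figure D1:**
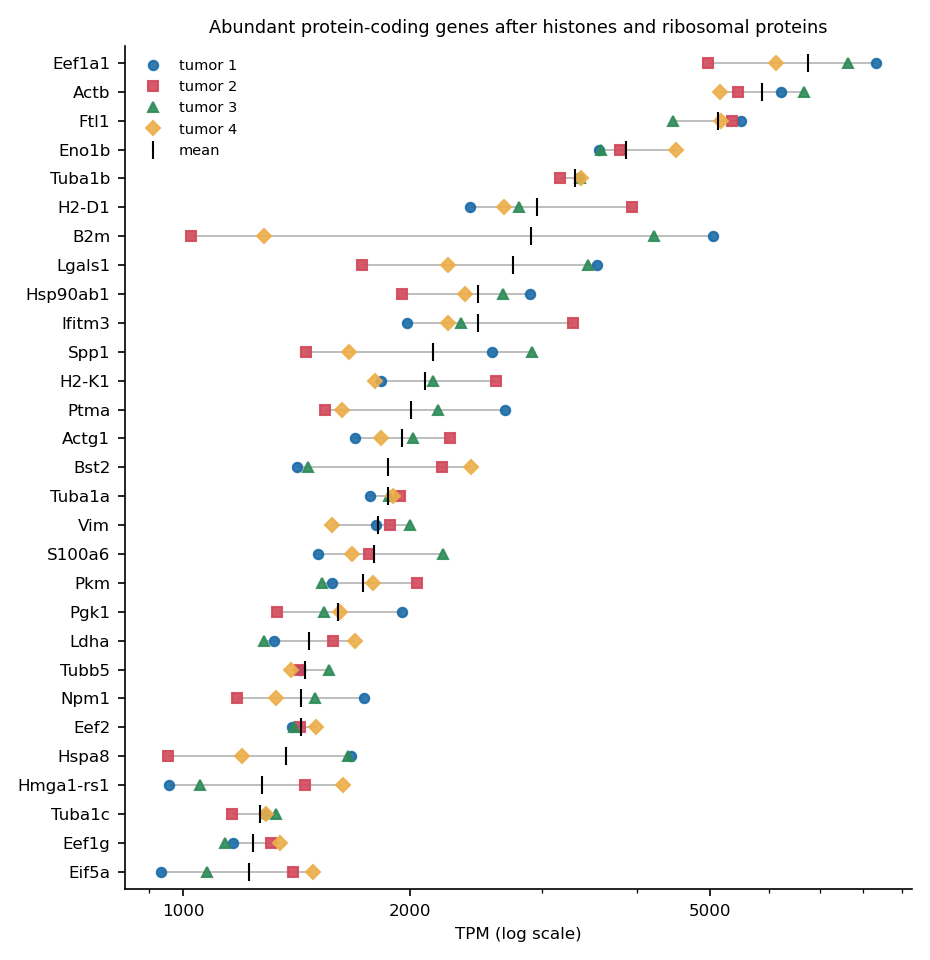
Shown are 29 of the 30 protein-coding genes with the highest mean TPM after replication histones and ribosomal proteins, with 1 point per tumor, a black tick at the mean and a log TPM axis. Tubulin genes and Eef2 lie close together across tumors, whereas B2m spreads from 1024 TPM in tumor 2 to 5055 TPM in tumor 1.

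Most markers of colon epithelium were near the detection limit. Cdx2, the transcription factor that sets intestinal identity, and Slc26a3, a chloride exchanger of colon cells, had 0 reads in all 4 tumors, which allows a level of up to 0.102 CPM in the deepest library and 0.372 CPM in the shallowest (3 counts, counting error only). Of 15 colon markers, 14 had a mean under 1 TPM, among them Vil1 (0.91 TPM), Cdh17 (0.94 TPM), Lgr5 (0.04 TPM) and Muc2 (0.10 TPM).

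General epithelial markers were similarly low, and 12 of 15 had a mean under 1 TPM. Epcam, the adhesion molecule that marks most carcinomas, had 0.61, 0.30, 0.56 and 0.07 TPM. The simple-epithelium keratins Krt8, Krt18 and Krt19 had means of 0.82, 0.31 and 0.68 TPM, and the adherens junction protein E-cadherin (Cdh1) had 1.47 TPM. Only Tjp1, a junction scaffold also made by endothelium and other cells (mean 52.1 TPM), and Elf3 (mean 8.32 TPM), an epithelial transcription factor, exceeded 2 TPM. The labelled origin in colon epithelium was therefore not visible in its usual markers, and these tumors are described below by their genes.

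Genes of the mesenchymal program were high, and all 12 on the list had a mean above 1 TPM. Vim, the intermediate filament of mesenchymal cells, had 1804, 1881, 1999 and 1577 TPM, so that the epithelial keratin Krt8 was at most 0.000837 of the level of Vim in any tumor. The factors that repress epithelial genes were present at lower levels: Snai1 had a mean of 86.0 TPM, Twist1 38.5, Zeb2 14.9, Snai2 5.47 and Zeb1 4.56. The receptor kinase Axl had 343 TPM, fibronectin (Fn1) 308 TPM and N-cadherin (Cdh2) 5.30 TPM on average. S100a4, a calcium-binding protein of motile cells, had a mean of 1046 TPM. Fibroblasts and macrophages of the host express many of these genes too, and their part in these levels was not tested.

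All 16 cell division genes on the list had a mean of 16.5 TPM or more, and the median SD of their log2 CPM over the tumors was 0.24, against 0.33 for all genes of 1 CPM or more. Rrm2, a subunit of the enzyme that makes deoxynucleotides, had 334, 374, 401 and 380 TPM. Pcna, the sliding clamp of DNA polymerase, had 312, 222, 342 and 206 TPM, and Top2a, which untangles chromosomes, had 265, 184, 274 and 181 TPM. Mki67, the gene of the Ki-67 antigen, had 133, 53.3, 129 and 59.3 TPM and, like Pcna and Top2a, was higher in tumors 1 and 3. The list as a whole did not follow them. In CPM, 8 of the 16 genes were highest in tumor 4, against 3376 of all 13497 genes of 1 CPM or more. Only 1 was lowest there, while 8 were lowest in tumor 1. In TPM, 4 were highest and 3 lowest in tumor 4. Mcm3 and Mcm5, subunits of the replicative helicase, had means of 200.4 and 197 TPM and were more even.

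Among cancer genes, the cell cycle kinase Cdk4 (mean 224 TPM) and its partner cyclin D1 (Ccnd1, mean 210 TPM) led, followed by Ctnnb1, the Wnt effector β-catenin, with 202 TPM. Myc, a growth-promoting transcription factor, had 93.6, 178, 89.0 and 186 TPM and was higher in tumors 2 and 4 than in tumors 1 and 3. Trp53, the p53 tumor suppressor, had 80.4, 69.4, 86.0 and 72.3 TPM, and Smad4, the shared effector of TGF-β signaling, was the most even of the 15 (SD of log2 CPM 0.05). Braf (mean 9.24 TPM) and Apc (mean 13.0 TPM) were both present. Of 5 source genes of known MC38 antigens, Rpl18 had a mean of 486 TPM, Reps1 27.5, Dpagt1 23.9 and Adpgk 11.3, and Emv2 was not analysed here.

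Glycolysis and hypoxia genes were among the most abundant lists, with 9085, 8000, 7810 and 8595 TPM summed over 16 genes. The pyruvate kinase gene Pkm had 1576, 2042, 1531 and 1789 TPM and the lactate dehydrogenase gene Ldha 1319, 1581, 1281 and 1690 TPM. Pgk1 had a mean of 1607 TPM, Aldoa 1135 TPM and Eno1 1097 TPM. The separate entry Eno1b, which was not on this list, had a mean of 3868 TPM. Whether reads were split between Eno1 and Eno1b was not tested, so the level of Eno1 alone is uncertain. Car9, a carbonic anhydrase induced by hypoxia, had 123 TPM in tumor 1 against 41.5, 52.7 and 49.3 TPM in the others. The glucose transporter Slc2a1 was also highest in tumor 1 (253 TPM), and Vegfa, the main vessel growth factor, had 104, 81.7, 69.9 and 85.1 TPM.

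**Figure D2:**
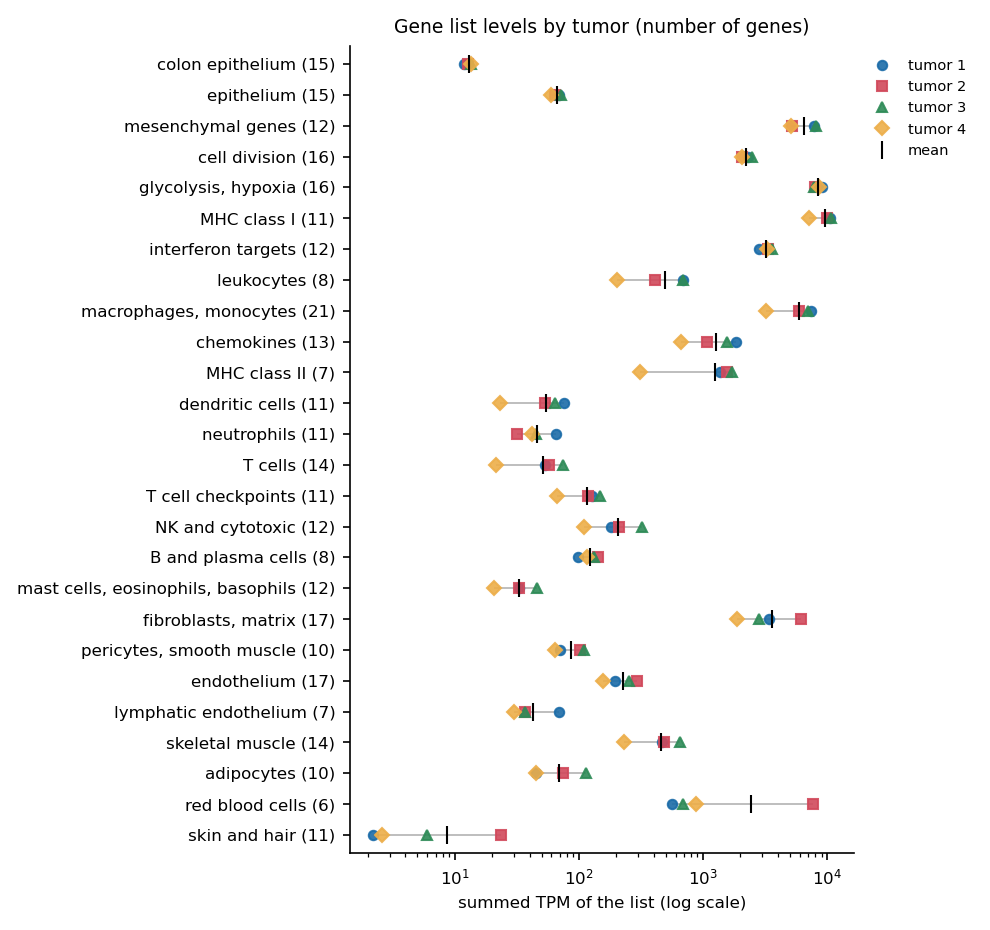
Summed TPM of 26 gene lists in each tumor on a log axis, with the number of genes per list in parentheses, 1 point per tumor and a black tick at the mean. Colon and epithelial lists, cell division and glycolysis lie close together, tumor 4 is lowest for leukocyte, T cell, macrophage, dendritic and MHC class II lists, and tumor 2 stands apart for red blood cell and skin and hair genes.

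Macrophage and monocyte genes were the most abundant of the lists of leukocyte types, with 7436, 5919, 7004 and 3238 TPM summed over 21 genes, all of which had a mean above 1 TPM. Besides Spp1, the highest were Lyz2, the lysozyme of myeloid cells, with 1146, 678, 719 and 288 TPM, the cathepsin gene Ctss (mean 662 TPM), the complement gene C1qa with 626, 767, 546 and 244 TPM, and the lipid carrier gene Apoe (mean 513 TPM). Adgre1, which encodes the mouse macrophage antigen F4/80, had 107, 45.2, 80.0 and 20.1 TPM, and Csf1r, the receptor that macrophages need to survive, had 71.8, 72.4, 70.7 and 20.5 TPM. Tumor 4 was lowest for 17 of the 21 genes in CPM, and Csf1r did not differ between the other 3 tumors by more than 2 TPM. Among genes of polarization, Mrc1, a mannose receptor, and Nos2, the inducible nitric oxide synthase, had means of 43.6 and 49.1 TPM, and the ratio of their TPM went from 1.31 in tumor 1 to 0.460 in tumor 4. Arg1, the arginase that competes with Nos2 for arginine, had 18.4, 54.7, 22.6 and 8.91 TPM and was highest in tumor 2.

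General leukocyte genes were lower, with 690, 408, 690 and 201 TPM summed over 8 genes. Ptprc, which encodes the leukocyte antigen CD45, had 28.0, 15.5, 28.6 and 7.30 TPM. The highest of the list were Laptm5 (120, 124, 132 and 44.1 TPM), the actin regulator Coro1a (mean 93.1 TPM), Cd53 (85.5 TPM), Cd52 (64.4 TPM) and Lcp1 (51.9 TPM). All 8 were lowest in tumor 4. Over the leukocyte, T cell, checkpoint, cytotoxic, macrophage, dendritic and MHC class II lists together, 70 of the 79 genes that reached 1 CPM were lowest in tumor 4 (88.6%), against 24.4% of all such genes. Other lists of host cells were also often lowest there, with 13 of 17 fibroblast and matrix genes and 10 of 17 endothelial genes (between 9 and 15 under other scalings), whereas 2 of 5 neutrophil genes and 1 of 4 B and plasma cell genes were. For the 79 genes the count was 70 also after each tumor was adjusted for transcript GC content, the G and C share described below.

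T cell genes were low but detected. Their 14 members summed to 53.3, 57.1, 74.1 and 21.3 TPM, and Cd5 alone had a mean under 1 TPM (0.86). Tcf7, a transcription factor of naive and memory T cells, was the highest and most even, with 9.35, 7.48, 11.5 and 8.86 TPM, followed by Lck (mean 7.83 TPM), Cd2 (6.15 TPM), Cd3d (5.28 TPM) and Cd8b1 (3.91 TPM). Cd3e, a chain of the T cell receptor complex, had 1.91, 2.28, 3.35 and 0.36 TPM, Cd8a 2.59, 4.94, 3.80 and 0.53 TPM, and Cd4 4.20, 3.22, 4.06 and 1.201 TPM. Tcf7 exceeded Cd3e 4.89, 3.28, 3.44 and 24.9 times in tumors 1 to 4, so Tcf7 did not follow Cd3e in tumor 4. The size of the last ratio is uncertain, since it rests on a Cd3e level of 0.36 TPM. The ratio of Cd8a to Cd4 was 0.617, 1.53, 0.935 and 0.443, so that Cd8a exceeded Cd4 only in tumor 2. Foxp3, the transcription factor of regulatory T cells, had 1.45, 1.75, 3.04 and 0.46 TPM. The constant-region genes of the T cell receptor (Trac, Trbc1, Trbc2) were not analysed here. Adgre1 exceeded Cd3e between 19.8 and 56.6 times per tumor, and the 56.6 of tumor 4 rests on the same low Cd3e level.

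Among checkpoint and costimulatory receptors, Tnfrsf9 (4-1BB) was highest and most even, with 51.0, 50.5, 46.9 and 33.6 TPM, followed by the ectonucleotidase gene Entpd1 (mean 13.7 TPM), Havcr2 (11.5 TPM), Tigit (7.80 TPM) and Tnfrsf18 (7.77 TPM). Pdcd1, which encodes the receptor PD-1, had 6.58, 8.63, 9.05 and 4.94 TPM, and its ratio to Cd3e was 3.45, 3.77, 2.70 and 13.9. The ratio of 13.9 in tumor 4 is uncertain, since Cd3e was very low there. Cd274, which encodes PD-L1, the ligand of PD-1, had 41.96, 41.5, 51.6 and 24.4 TPM. Tox was near the detection limit, with a mean of 0.21 TPM.

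Cytotoxic genes were higher than T cell genes, at 181, 208, 324 and 110 TPM summed over 12 genes. Gzmb, a protease that kills target cells, had 60.9, 72.3, 125 and 44.5 TPM, and Prf1, the pore through which it enters, had 17.2, 20.2, 37.5 and 11.4 TPM. Tumor 3 was highest for both. Gzma and Nkg7 had means of 36.2 and 33.4 TPM, and Klrd1, an NK cell receptor chain, had 10.1 TPM. Ifng had 3.27, 1.29, 2.55 and 0.37 TPM. Gzmk (mean 0.20 TPM) was detected only in tumors 1 and 3, the libraries with the most counts, so its absence elsewhere is uncertain.

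Dendritic cell genes were low, with 75.1, 53.2, 63.5 and 23.3 TPM over 11 genes. Itgax, the integrin CD11c, had a mean of 17.5 TPM, the homing receptor Ccr7 14.2 TPM, the chemokine Ccl22 5.54 TPM, Batf3 5.49 TPM and Zbtb46 4.23 TPM. Clec9a and Xcr1, which define the cross-presenting dendritic cells, had means of 0.64 and 0.32 TPM. Xcr1 had no read in tumors 2 and 4, the libraries with the fewest counts. Neutrophil genes were also low. S100a9 had 24.5, 11.5, 12.9 and 24.1 TPM, Csf3r, the receptor for granulocyte growth factor, 17.1, 10.3, 14.1 and 6.49 TPM, and S100a8, Retnlg and Trem1 had means of 7.11, 3.81 and 2.20 TPM. The granule genes Elane, Camp and Mpo had means of 0.14, 0.06 and 0.03 TPM, Mmp8 had 0.91 TPM and Ngp had 0 reads.

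Of 8 genes of the B and plasma cell list, 5 had a mean under 1 TPM, among them Ms4a1 (0.02 TPM), Pax5 (0.65), Jchain (0.20) and Mzb1 (0.13). Cd79b (4.35 TPM) and Cd79a (3.33 TPM), signaling chains of the B cell receptor, were above 1 TPM. Sdc1, a plasma cell marker also made by tumor cells, held most of that list with 89.4, 136, 122 and 109 TPM. Among mast cell, eosinophil and basophil genes, the mast cell proteases Mcpt4 (8.19 TPM) and Cma1 (7.15 TPM) led, followed by Hdc (5.00 TPM), Tpsb2 (3.99 TPM) and Cpa3 (3.89 TPM). The eosinophil genes Epx (0.05 TPM), Prg2 (0.49 TPM) and Siglecf (0.53 TPM), and Mcpt8 (0.56 TPM) and Ms4a2 (0.11 TPM), were below 1 TPM, and Fcer1a averaged 1.00 TPM.

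MHC class II genes differed more between the tumors than any other immune list, with 1361, 1570, 1700 and 312 TPM summed over 7 genes, a 5.45-fold range. Ciita, the coactivator without which class II genes are silent, had 5.68, 5.20, 6.45 and 0.91 TPM. Cd74, the invariant chain, had 712, 916, 893 and 172 TPM, H2-Eb1 212, 205, 261 and 39.1 TPM, H2-Ab1 188, 248, 237 and 34.9 TPM, and H2-Aa 143, 98.1, 178 and 18.0 TPM. H2-DMb1, part of the peptide loader, had a mean of 70.9 TPM. Tumor 4 was lowest for all 7, also under each scaling tried, and 5 of the 7 had an SD of log2 CPM above 1, against 3.44% of all genes of 1 CPM or more. The 250 bases before the start of H2-Aa and H2-Eb1 are shown because these genes moved together. In capitals is the motif CCAAT on either strand (ATTGG on the other), the core of the Y box that class II promoters share. In RefSeq promoters of GRCm38.p6, 33.9% of 32851 windows of this length held it, so a match is no mark of class II genes and is a description only.
H2-Aa (chr17:34287824-34288073, minus strand): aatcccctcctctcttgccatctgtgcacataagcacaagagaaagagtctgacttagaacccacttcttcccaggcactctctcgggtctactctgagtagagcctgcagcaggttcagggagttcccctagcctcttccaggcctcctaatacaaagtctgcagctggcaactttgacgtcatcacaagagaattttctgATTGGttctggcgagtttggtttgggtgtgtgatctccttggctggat
H2-Eb1 (chr17:34305617-34305866, plus strand): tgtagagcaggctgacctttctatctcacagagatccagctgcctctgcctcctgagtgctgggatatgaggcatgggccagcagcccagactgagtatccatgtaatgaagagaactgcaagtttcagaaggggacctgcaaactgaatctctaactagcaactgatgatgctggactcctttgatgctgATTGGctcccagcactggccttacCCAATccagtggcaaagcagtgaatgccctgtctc
The match in H2-Aa began 48 bases before the start, and those in H2-Eb1 began 59 and 35 bases before it.

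MHC class I genes were far higher than class II, with 10461, 9963, 10755 and 7135 TPM summed over 11 genes. H2-D1 had 2401, 3945, 2790 and 2664 TPM and H2-K1 1830, 2602, 2145 and 1800 TPM. The list sum was lowest in tumor 4, as were 6 of the 11 genes in TPM but 3 of 11 in CPM. B2m, the shared light chain, had 5055, 1024, 4214 and 1280 TPM, whereas Tapbp, a peptide-loading chaperone, had 425, 1143, 662 and 664 TPM. The light chain was thus highest in tumor 1, in which Tapbp, the transporter genes Tap1 (181 TPM) and Tap2 (105 TPM) and 4 other members (H2-D1, H2-K1, Psmb8 and Psmb9) were lowest in CPM.

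Interferon targets were high in all 4 tumors, with 2811, 3311, 3566 and 3265 TPM over 12 genes. Isg15, a ubiquitin-like protein, had 363, 859, 550 and 1011 TPM, and Oas1a, Cxcl10, Rsad2 and Ifit3 had means of 506, 401, 365 and 356 TPM. Cxcl10 was among the most even, between 373 and 476 TPM, whereas the related chemokine Cxcl9, induced mainly by interferon-γ, had 26.6, 18.5, 43.9 and 5.19 TPM. The chemokine list was led by the monocyte attractants Ccl7 (mean 355 TPM), Ccl2 (455, 187, 435 and 180 TPM) and Ccl8 (mean 279 TPM), then by Ccl6 (118 TPM) and Cxcl16 (50.5 TPM). Among cytokines and growth factors, Csf1, the ligand of Csf1r, had 63.5, 63.8, 56.7 and 62.3 TPM, Pdgfa 58.9, Tgfb1 49.3, Il1b 45.1 and Il34 32.7 TPM on average, and Il6 (0.83 TPM) and Csf2 (0.73 TPM) were below 1 TPM.

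Matrix genes were the most abundant stromal group, and their sum was highest in tumor 2. In CPM, 8 of the 17 genes were highest in tumor 2 and 6 in tumor 1, against 3689 and 4001 of all 13497 genes. With the GC adjustment described below, the numbers were 6 and 7, against 3677 and 3669 of all genes. The 17 fibroblast and matrix genes summed to 3395, 6169, 2827 and 1885 TPM. Col1a1, a chain of type I collagen, had 394, 2184, 393 and 438 TPM, its partner Col1a2 had 206, 647, 161 and 151 TPM, and Col3a1 had 848, 1604, 567 and 413 TPM. Col6a1 (mean 483 TPM) and the matrix binder Sparc (mean 456 TPM) completed the first members with Col5a1 (299 TPM). Of 30 collagen genes that reached 1 CPM, 24 were highest in tumor 2, against 3689 of all 13497 such genes. The collagen genes had a median G and C share of 56.5%, and all genes between 54% and 58% had a median deviation of 0.23 in tumor 2. After the GC adjustment described below, the median SD of the collagen genes went from 0.63 to 0.46. Their sum stayed highest in tumor 2, at 3778, 7586, 3804 and 2593 TPM. The small proteoglycans did not follow: Dcn (decorin) had 121, 21.4, 52.9 and 12.3 TPM and Lum (lumican) 56.0, 12.2, 24.0 and 5.94 TPM, both highest in tumor 1. The fibroblast receptors Pdgfra (38.7, 29.0, 46.3 and 20.04 TPM) and Pdgfrb (43.7, 45.0, 43.5 and 23.3 TPM) differed much less than the collagens. Fap, which marks activated fibroblasts, had a mean of 2.29 TPM.

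Among remodeling genes, the protease gene Ctsd (mean 553 TPM), the inhibitor Timp1 (425 TPM), Ctsb (418 TPM), Ctsl (178 TPM) and the receptor Plaur (135 TPM) led. Mmp14, a membrane-bound collagenase, had 96.7, 135, 123 and 63.9 TPM. Mural cell genes were low: Mcam had a mean of 34.8 TPM, Des 24.7, Tagln 8.67, Rgs5 5.28 and Notch3 4.35, and Cnn1, a smooth muscle protein, had 0.27 TPM.

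All 17 endothelial genes had a mean above 1 TPM, and their sum was 195, 295, 252 and 156 TPM. Plvap, which spans the openings of leaky vessels, had 39.7, 77.7, 52.0 and 33.6 TPM. The vascular cadherin gene Cdh5 had 27.7, 31.2, 37.0 and 22.7 TPM and Pecam1, which encodes CD31, 18.2, 15.9, 24.8 and 8.19 TPM. Egfl7 (33.6 TPM) and Eng (19.96 TPM) completed the first members, and the median SD of log2 CPM over the list was 0.52, above the 0.33 of all genes, with Cdh5 lowest at 0.19 and Sox17 highest at 1.07. Lymphatic markers were weaker. Prox1, the regulator of lymphatic identity, had 0.05 TPM, Reln 0.04, Mmrn1 0.16, Ccl21a 2.11 and Flt4 1.91 TPM, whereas Pdpn (25.3 TPM) is also made by fibroblasts. Lyve1, shared by lymphatic vessels and some resident macrophages, had 33.2, 5.36, 8.04 and 6.92 TPM and was highest in tumor 1.

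Genes typical of muscle and fat were found in all tumors. Whether they came from neighboring tissue was not tested. Skeletal muscle genes summed to 462, 481, 646 and 229 TPM over 14 genes, led by the muscle actin Acta1 (175, 212, 284 and 110 TPM), Myh4 (mean 42.6 TPM), Mylpf (35.0 TPM), Tnnt3 (34.6 TPM) and Ckm (30.4 TPM), and 12 of the 14 were lowest in tumor 4, against 24.4% of all genes. Adipocyte genes were lower, with Cfd at 5.74, 41.5, 58.2 and 18.4 TPM, Lpl at a mean of 19.4 TPM, Fabp4 at 8.32 TPM, Plin4 at 5.78 TPM and Adipoq at 1.94 TPM, while Plin1, Retn, Lep and Ucp1 were below 1 TPM. The hair follicle genes Krt25 (0, 7.53, 0 and 0 TPM), Krt71 (0, 6.85, 0.06 and 0 TPM) and Tchh (0.05, 6.003, 0 and 0 TPM) were found almost only in tumor 2, whereas the epidermal genes Krt14, Krt10 and Krt5 had means of 1.13, 1.12 and 0.59 TPM and Lor had 0 reads. Nerve markers were low (Prx 6.19 and Mbp 2.66 TPM on average, S100b, Cdh19 and Sox10 below 0.2 TPM). Melanocyte genes were below 1 TPM, with Pmel highest (0.94 TPM) and Tyr at 0 reads. No read was found on the 4 Y-linked genes examined.

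Hemoglobin genes of red blood cells were the largest difference between tumors among the lists, at 561, 7663, 694 and 883 TPM over 6 genes, a 13.6-fold range. Hba-a1, an α-globin gene, had 171, 2237, 203 and 256 TPM and Hbb-bs, a β-globin gene, 104, 1408, 137 and 168 TPM. Hba-a1 and Hba-a2 had the same counts in every tumor, so that their reads cannot be told apart, and the list sum holds both entries. Alas2, which starts heme synthesis in red cell precursors, had 0.68, 2.22, 0.71 and 0.40 TPM and Slc4a1 0.17 TPM on average. Tumor 2 was the highest of the 4 for the globins, for type I collagen and for hair follicle genes.

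Spread over the tumors was measured as the SD of log2 CPM over 4 tumors. Its median was 0.33 over 13497 genes, with 464 genes (3.44%) above 1 and 769 (5.70%) under 0.1. The SD that counting error alone gives had a median of 0.22 among genes of 1 to 10 CPM, whose median SD was 0.49, and of 0.07 among genes of 10 to 100 CPM, whose median SD was 0.30. Genes of low level are therefore the least certain. Above an SD of 1 were 8 of 66 histone genes (12.1%) and 11 of 83 small nucleolar and nuclear RNAs (13.3%), but 2 of 80 ribosomal protein genes (2.50%) and 2 of 71 genes of oxidative phosphorylation (2.82%).

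**Figure D3:**
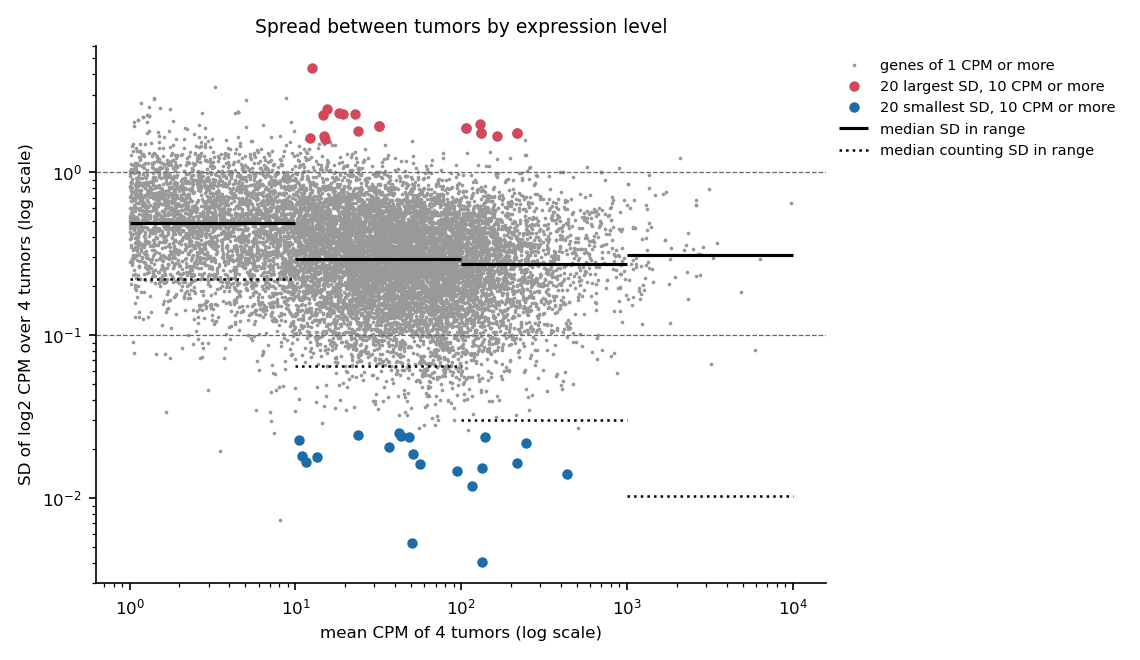
SD of log2 CPM over 4 tumors against mean CPM for every gene of 1 CPM or more, both on log axes, with the 20 largest (red) and 20 smallest (blue) SDs among genes of 10 CPM or more, dashed lines at 1 and 0.1, solid bars for the median SD and dotted bars for the median counting SD of each range. The median SD falls from 0.49 to 0.30 between the first and second range and then stays near that level, whereas the counting SD keeps falling to 0.01.

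The 20 most variable genes of 10 CPM or more included histone variants, genes of the X-linked Ott cluster, a cancer-testis gene, globins and a heat shock gene. Hist1h2aa, a histone normally found in testis, had counts of 2, 0, 460 and 437, and Hist1h2ba, another testis histone, had 1547, 6, 106 and 66. The 2 genes were high in different tumors. Hist1h2bp, a replication histone, had 253, 11.3, 172 and 86.6 CPM. Mageb4, a melanoma antigen family gene, had 20.3, 0.99, 22.0 and 33.8 CPM and was set apart in tumor 2 alone. Ott had 67.3, 3.598, 45.5 and 10.9 CPM, and Gm15085, with the same counts, and Gm15093, Gm15127 and Gm15097 of the same chromosome shared its order, highest in tumor 1 and lowest in tumor 2 with tumor 3 above tumor 4. Mir684-1, Vmn1r139 and Gm13212 had that order too. The copies of the Ott cluster are similar in sequence, which makes their separate levels uncertain. The remaining genes were the globins Hbb-b1, Hbb-b2, Hbb-bs, Hbb-bt, Hba-a1 and Hba-a2, together with Ogn and Hspa1a. Hbb-b1 had the same counts as Hbb-bs in every tumor, Hbb-b2 the same as Hbb-bt, and Hba-a1 the same as Hba-a2. The globin entries are thus not separate measurements.

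Hspa1a, which encodes the inducible heat shock protein HSP70, had 61.0, 59.2, 37.1 and 503 CPM. Its neighbor Hspa1b, chosen after its values were seen, had 71.9, 79.8, 94.9 and 725 CPM. Both were set apart in tumor 4 by more than 2.9 on the log2 scale. The 250 bases before the start of Hspa1a are shown with the heat shock element core GAANNTTC, which reads the same on both strands, in capitals. It began 104 bases before the start and was held by 6.69% of all windows of this length.
Hspa1a (chr17:34972157-34972406, minus strand, GRCm38.p6, RefSeq): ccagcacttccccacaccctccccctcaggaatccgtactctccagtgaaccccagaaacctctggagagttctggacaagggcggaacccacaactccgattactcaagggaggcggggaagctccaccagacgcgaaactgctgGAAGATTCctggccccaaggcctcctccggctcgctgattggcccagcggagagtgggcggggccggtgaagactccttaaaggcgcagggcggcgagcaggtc

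Each tumor had genes of its own, defined as more than 1 above or below the next tumor on the log2 scale. Tumor 1 stood above the others for 103 genes, tumor 2 for 108, tumor 3 for 15 and tumor 4 for 43. Tumor 4 stood below for 361 genes and tumor 2 for 204, against 26 for tumor 1 and 10 for tumor 3. With the GC adjustment described below, the genes above numbered 95, 62, 19 and 35 in tumors 1 to 4. Those below then numbered 19, 170, 7 and 398. For tumor 2, 49 of the genes above were the same before and after. In tumor 1 the genes above included Lyve1 (34.1, 5.83, 8.11 and 8.87 CPM), Folr2 (43.9, 10.4, 14.9 and 8.09 CPM) and F13a1 (189, 58.3, 64.5 and 37.6 CPM), which are known from resident macrophages, and the matrix genes Ogn, Efemp1 and Adamts5. In tumor 2 they included Eln, the gene of elastin, with 11.9, 48.4, 8.07 and 13.4 CPM. In tumor 3 they were the muscle gene Xirp2, Plin4, Gzmc and Gm2083 among genes of 10 CPM or more. The genes below in tumor 4 included Ciita, H2-Aa, H2-Eb1, H2-Ab1, Cd74, the giant muscle protein Ttn and the lymphoid surface enzyme Cd38.

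**Figure D4:**
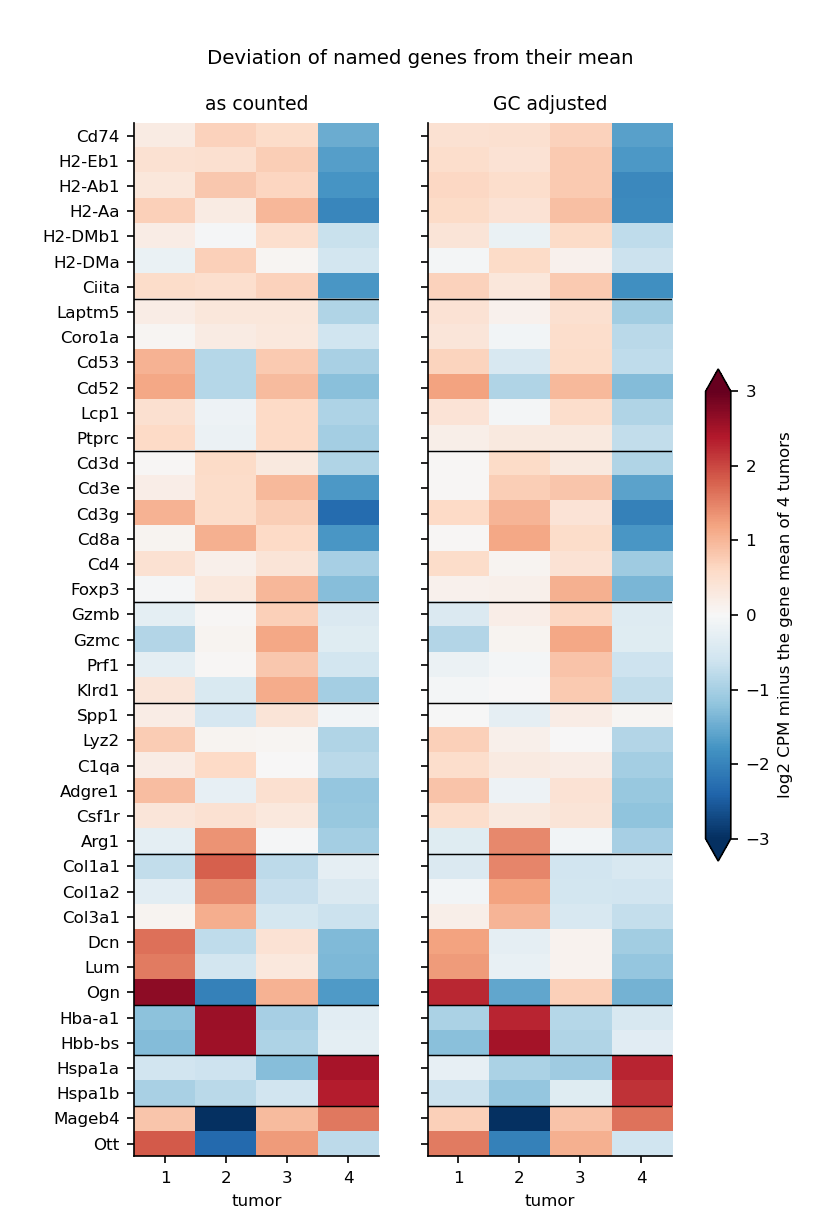
Deviation of log2 CPM from the mean of each gene over 4 tumors for 41 named genes, as counted (left) and after adjustment for transcript GC content (right), with red above and blue below the mean and colors saturating at 3. MHC class II, leukocyte and T cell genes are blue in tumor 4, globins and type I collagen red in tumor 2, and Hspa1a and Hspa1b red in tumor 4 in both panels.

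Other genes separated tumors 1 and 3 from tumors 2 and 4. Snord17, a small nucleolar RNA, had 75.6, 495, 101 and 297 CPM, and Terc, the RNA template of telomerase, had 27.0, 124, 32.0 and 129 CPM. In the opposite direction, Rpl24 had 332, 49.1, 255 and 154 CPM, Cox7b, a subunit of cytochrome oxidase, 88.0, 12.04, 66.4 and 39.0 CPM, and Slirp, an RNA-binding protein of mitochondria, 29.4, 2.73, 23.4 and 9.22 CPM. These 5 genes were chosen after their values were seen. Of the 464 genes with an SD above 1, 289 (62.3%) had tumors 1 and 3 as their 2 highest, against 35.0% of all genes. Tumors 2 and 4 were also those with the highest Rn45s shares, and the part of library composition in these differences was not tested.

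Deviations from the gene mean moved with the base composition of the transcripts. Across 13378 genes, the deviation of a tumor from the gene mean correlated with the G and C share of the longest transcript at r = -0.54 in tumor 1, 0.53 in tumor 2, -0.47 in tumor 3 and 0.32 in tumor 4, as a description across genes that share libraries. In transcripts with under 38% G and C the median deviation was 0.52, -0.50, 0.35 and -0.29 on the log2 scale, and above 62% it was -0.47, 0.53, -0.33 and 0.34. Genes with an SD above 1 had a median G and C share of 45.5%, genes with an SD under 0.1 had 48.6%, and all genes had 49.7%. Stretches of 3 variable genes show the contrast, each the middle 120 bases of the coding sequence (GENCODE M21, mm10) with G and C in capitals. Ogn, encoding the matrix proteoglycan osteoglycin, had 41.8, 1.49, 13.2 and 1.92 CPM. Its longest transcript had 36.3% G and C, whereas that of Col1a1 had 58.9% and that of Hba-a1 had 57.2%. The stretches shown hold 34.2% (Ogn), 60.8% (Col1a1) and 65% (Hba-a1).
Ogn (chr13:49608046-49624501, plus strand): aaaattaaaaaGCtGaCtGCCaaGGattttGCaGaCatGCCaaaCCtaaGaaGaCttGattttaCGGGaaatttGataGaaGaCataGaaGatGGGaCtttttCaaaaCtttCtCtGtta
Col1a1 (chr11:94936224-94953042, plus strand): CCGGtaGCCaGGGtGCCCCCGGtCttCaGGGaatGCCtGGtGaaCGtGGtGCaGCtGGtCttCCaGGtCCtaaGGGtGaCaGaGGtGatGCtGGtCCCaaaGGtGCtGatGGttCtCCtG
Hba-a1 (chr11:32283511-32284465, plus strand): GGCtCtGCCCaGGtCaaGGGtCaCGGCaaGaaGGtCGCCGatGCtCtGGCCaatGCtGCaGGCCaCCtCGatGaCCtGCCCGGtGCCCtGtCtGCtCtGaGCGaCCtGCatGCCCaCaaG

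**Figure D5:**
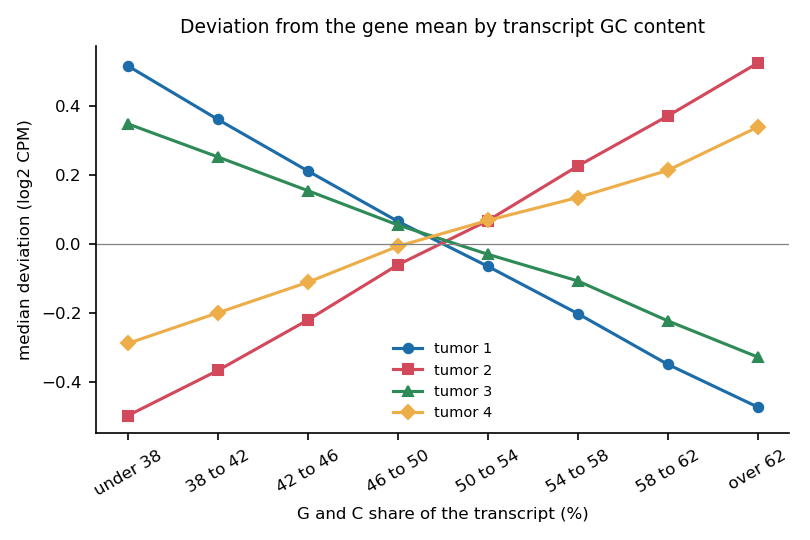
Median deviation of log2 CPM from the gene mean in 8 ranges of the G and C share of the longest transcript, with 1 line per tumor. Tumors 1 and 3 fall from 0.52 and 0.35 to -0.47 and -0.33 and tumors 2 and 4 rise from -0.50 and -0.29 to 0.53 and 0.34, and the lines cross near 50%.

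The median deviation of each tumor in 20 bins of G and C share was therefore subtracted as an added setting. The genes with an SD above 1 then numbered 339, of which 286 were among the 464 before, and the genes under 0.1 rose to 1150. All 20 most variable genes kept an SD above 1. The SD of Col1a1 went from 1.22 to 0.98, that of Dcn from 1.32 to 0.95, that of B2m from 1.07 to 0.72 and that of Hspa1a from 1.68 to 1.56. Tumors 1 and 3 were still the 2 highest for 49.0% of the 200 most variable genes, against 59.0% before and 29.8% of all genes after the adjustment. T cell genes with an SD above 1 remained 8 of 14, and those of MHC class II remained 5 of 7 in number.

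The most stable genes of 10 CPM or more had almost the same CPM in every tumor. Ccnb1, the cyclin of mitosis, had 134, 134, 133 and 133 CPM, and Mtr, the methionine synthase, 51.0, 50.7, 50.7 and 50.6 CPM. Next came Derl1, Clic4, Tm9sf4, Fxr1, Dnajc14, Ash2l, Tmem177, Zbtb46, Kctd6, Cpne2, Ttc4, Cpne1, Wdr53, Rer1, Tsc1, Fundc2, Naa16 and Cstf2t, all with an SD of 0.02 or less at 2 decimals. For all 20 the SD was smaller than counting error alone gives on average, so their order lies within counting error, and 10 of 20 kept an SD under 0.1 after the GC adjustment. The SD of Ccnb1 rose to 0.19 and that of Fxr1 to 0.45 with it, whereas that of Clic4 went from 0.01 to 0.04 and that of Derl1 from 0.01 to 0.02.

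The 17 common reference genes had a median SD of 0.26, against 0.33 for all genes, and a wide range. Actb (SD 0.08), Sdha (0.09) and Gusb (0.09) were the steadiest of 17, and next among those shown were Hprt (0.18), Tfrc (0.20), Eef2 (0.21), Ywhaz (0.21), Pgk1 (0.26), Rpl13a (0.30), Rplp0 (0.34) and Polr2a (0.34). Tbp (0.65), Ppia (0.70), Gapdh (1.00) and B2m (1.07) were among those that varied most. Gapdh had 474, 88.4, 316 and 162 TPM, and its ratio to Actb went from 0.0763 in tumor 1 to 0.0162 in tumor 2. Gapdh and Ppia have many processed pseudogenes, which can take reads during counting, and this was not tested. Among long noncoding RNAs, Malat1 had 1362, 1113, 1050 and 652 TPM, Neat1 67.4, 51.2, 30.4 and 32.7 TPM, H19 a mean of 26.3 TPM and Xist, which silences an X chromosome in female cells, 27.4, 16.8, 23.2 and 5.66 TPM.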

How the data were processed

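Bulk RNA-seq of 4 non-photoconverted MC38 tumors was used. Counts per gene symbol were deposited by the authors without normalization, and the deposited normalized signal values were counts divided by DESeq2 size factors, used here only as an alternative. The submitters' processing notes name CASAVA, FastQC, Trim Galore, HISAT2, featureCounts and DESeq2 with build mm10, without versions. The paper names a TruSeq stranded total RNA kit and the labels a SMARTER kit, and whether counting used strand is not given in the sources used here. RNA was extracted on a QiaCube from tumors kept in RNAlater.

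Rn45s was left out, and counts were scaled by TMM in edgeR 4.0.16 (R 4.3.3) over the 4 tumors, with log2 CPM at a prior count of 2. TPM used merged exon lengths of GENCODE M21, matched by symbol or RefSeq synonym (399 symbols without a match), for genes of 200 bases or more. TPM is not TMM scaled, so tumors with more Rpph1 and histone reads have lower TPM elsewhere. Clic4, even in CPM (438, 431, 435 and 429), had 190, 176, 191 and 148 TPM. TPM can thus place a gene lowest in tumor 4 that is even in CPM. For the added GC adjustment, each tumor's median deviation in 20 bins of the GC content of the longest transcript was subtracted. There is 1 group, so no test was made, and Dixon's ratio was used only to flag values. The variability measure was also run on simulated counts with raised genes, a GC trend and counting error. They held no other spread between tumors, so they check the calculation only.

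Named genes were the 20 highest by TPM, 10 by share of counts, up to 5 per list by TPM and defining members under 1 TPM, the 20 largest and 20 smallest SDs above 10 CPM and 17 reference genes. Hspa1b, Snord17, Terc, Rpl24, Cox7b, Slirp, the genes set apart in 1 tumor, further list members and those in the closing section were chosen after their values were seen. Members and the 35 lists (10 of whose genes were not analysed here) were chosen with earlier results of these data known. Alternatives covered scaling (DESeq2 1.42.0), gene length, filters, prior count and leaving out each tumor. Some members of these lists are not reported here.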

Additional observations from a re-analysis of the deposited data

Results flagged for a closer look

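Among 97 sets of 4 values examined (lists, abundant, variable and reference genes), 4 had a tumor far from the other 3 by Dixon's ratio. At 1 in 20, chance would flag 4.85 of 97 independent, unselected sets. These sets overlap and include genes picked for their spread, so the 4 cannot be weighed against that number. None is shown to lie beyond chance. The summed red blood cell list was 7663 TPM in tumor 2, with the next tumor at 883 TPM. Hist1h4n was 11330 TPM in tumor 4, with the next at 7216 TPM, and Hist1h3b was 6123 TPM in the same tumor, with the next at 4194 TPM. Mageb4 was 0.14 log2 CPM in tumor 2, with the next at 4.35.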

How the results depend on the processing

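Of 423 values recomputed for 62 results under other settings, 386 moved by less than the SD between tumors or pairs of tumors, or stayed on the same side of the threshold or, for counts, within 1.5 times, and 0 changed direction. The summed colon list was 12.9 TPM, and 11.8 TPM with the longest transcript as gene length, 10.8 TPM without genes under 1 CPM and 14.5 TPM with Rpph1 and Rmrp left out of the total. The epithelial list was 66.1 TPM, and 58.8 TPM with the longest transcript and 74.4 TPM without both RNAs. Genes with an SD above 1 numbered 148 with a minimum of 10 CPM and 1098 with no filter, and between 429 and 657 with each tumor left out, where fewer tumors give a less certain SD. Stable genes numbered between 940 and 1687 with each tumor left out, the most without tumor 2 and 1520 without tumor 4. Without tumor 2 the 6 globin entries, Mageb4, Hist1h2bp, Vmn1r139 and Gm13212 no longer had an SD above 1 (0.41 for Mageb4). Nor did Hspa1a without tumor 4 (0.40). The globin entries share their counts in pairs. The lowest r between tumors was 0.971 with no filter, 0.875 with a minimum of 10 CPM and 0.952 with the GC adjustment. Leaving out mitochondrial genes was not run because the table has 0 of them. The GC adjustment and the total without Rpph1 and Rmrp were chosen after seeing the data. Depths of 8081939 to 28645033 counts without Rn45s limit genes of a few CPM. With 4 tumors, an SD is itself imprecise. No paired analysis was possible because only 1 group was described.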

Other observations

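The granzymes encoded beside Gzmb were high although Gzmk was nearly absent. Gzmc had 146, 270, 610 and 167 TPM and exceeded Gzmb in every tumor. Gzmd (14.9, 67.7, 104 and 24.8 TPM), Gzme (10.2, 43.3, 56.3 and 16.7 TPM), Gzmf (10.3, 40.2, 74.99 and 17.6 TPM) and Gzmg (14.3, 50.2, 69.2 and 8.17 TPM) were all highest in tumor 3. These granzymes are similar in sequence, so that their separate levels are uncertain. With Gzmc, tumor 3 was again highest, as for Gzmb and Prf1.

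The placental hormone genes Prl2c2 (1254, 602, 1148 and 973 TPM) and Prl2c3 (633, 264, 584 and 442 TPM), which are near copies of each other, were among the abundant transcripts of all 4 tumors. Genes known from fetal growth were present too, with Igf2bp2 at 20.9, 15.9, 19.1 and 21.4 TPM, Igf2bp3 at a mean of 5.33 TPM and the chromatin protein gene Hmga2 at 11.7, 13.4, 10.7 and 12.2 TPM. The SD of log2 CPM of these 3 was 0.29, 0.22 and 0.25, against a median of 0.30 for genes of 10 to 100 CPM. After the GC adjustment it was 0.30, 0.12 and 0.40, against 0.27 for all genes of 1 CPM or more. The surface antigen genes Ly6a (745, 416, 725 and 350 TPM) and Cd44 (207, 145, 257 and 136 TPM) were high, and Thbs1, which encodes thrombospondin-1, had 98.2, 86.1, 95.4 and 92.5 TPM and an SD of log2 CPM of 0.15.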
